A study of Mus musculus with 6 samples.

Results

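The genes described here are 30 genes of the unfolded protein response and of protein folding in the endoplasmic reticulum (ER), measured by 72 probe sets among the 34945 probe sets of the array that name 1 gene. They were taken from a list by name, as every probe set whose platform annotation names exactly one of the 30 genes. The rule uses no measured value, although the list was drawn up with earlier results of these data known. A member gene had between 1 and 5 probe sets, and 22 of the 30 had several. The arrays hold haematopoietic stem cells (HSC), the cells that sustain blood formation, taken from the marrow of mice 6 to 8 weeks old by a sort for CD150+ CD48- KSL cells. There were 3 arrays of Lig4mut mice and 3 of WT (Lig4+/+) littermates, both from intercrosses of Lig4mut/+ mice and neither treated. Lig4 codes for DNA ligase IV, the enzyme that closes broken DNA ends in non-homologous end joining. The labels name the mutant allele only as Lig4mut, and neither the change in the gene nor any pooling of mice is stated in the labels, so the p-values measure the spread between these arrays.

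The unfolded protein response adjusts the folding capacity of the ER to its load. The membrane proteins IRE1 (gene Ern1), PERK (Eif2ak3) and ATF6 sense unfolded protein in the ER lumen. IRE1 splices the Xbp1 messenger into the form that encodes an active transcription factor, ATF6 is cut in the Golgi to release one, and PERK phosphorylates eIF2alpha, which slows translation in general and favours that of Atf4. XBP1 and ATF6 switch on chaperones and the machinery of ER-associated degradation, ATF4 switches on Ddit3 (CHOP), Trib3 and Ppp1r15a (GADD34), and in HSC the response is known to weigh on whether a stressed cell survives. The arrays measure messenger level and not Xbp1 splicing, ATF6 cleavage or eIF2alpha phosphorylation.

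The promoters of the members are described by base composition alone. RefSeq promoter windows of the GRCm38.p6 build, 250 bases before to 50 after a gene start, were at hand for 26 of the 30 genes (27 windows). Their median GC content was 63.0%, in a range of 51.0% to 76.0%, and they held a median of 25 CpG dinucleotides. All 32851 windows had a median GC content of 52.7% and a median of 7 CpG. The windows below belong to the members whose genotypes did not overlap in expression and for which a window was at hand, of which Sdf2l1, Creld2 and Eif2ak3 were higher in Lig4mut and Ddit3 and Ppp1r15a lower. Capitals mark the CpG dinucleotides. They numbered 23 in Sdf2l1, 33 in Creld2 and 17 in Eif2ak3, and 22 in Ddit3 and 26 in Ppp1r15a, so the counts overlapped between the genes that were higher and those that were lower.
Sdf2l1 (chr16:17132334-17132633, minus strand): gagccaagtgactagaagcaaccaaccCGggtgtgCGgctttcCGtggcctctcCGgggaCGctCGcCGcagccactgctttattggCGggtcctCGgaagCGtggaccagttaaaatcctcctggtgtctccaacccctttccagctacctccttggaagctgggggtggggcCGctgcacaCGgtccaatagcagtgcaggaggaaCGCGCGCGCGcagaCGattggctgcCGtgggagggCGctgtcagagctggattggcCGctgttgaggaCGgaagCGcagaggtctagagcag
Creld2 (chr15:88819396-88819695, plus strand): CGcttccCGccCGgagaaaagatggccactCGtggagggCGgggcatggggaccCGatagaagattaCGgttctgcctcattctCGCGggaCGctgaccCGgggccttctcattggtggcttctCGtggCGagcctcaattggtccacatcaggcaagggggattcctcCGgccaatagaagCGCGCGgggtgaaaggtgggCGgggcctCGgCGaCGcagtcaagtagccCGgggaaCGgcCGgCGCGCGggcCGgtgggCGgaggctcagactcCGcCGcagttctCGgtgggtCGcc
Eif2ak3 (chr6:70844265-70844564, plus strand): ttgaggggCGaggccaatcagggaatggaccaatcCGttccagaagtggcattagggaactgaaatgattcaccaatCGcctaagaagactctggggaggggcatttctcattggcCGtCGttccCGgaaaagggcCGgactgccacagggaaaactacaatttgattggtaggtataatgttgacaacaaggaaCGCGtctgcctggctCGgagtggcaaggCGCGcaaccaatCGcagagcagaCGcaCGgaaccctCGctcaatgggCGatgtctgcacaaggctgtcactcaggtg
Ddit3 (chr10:127290543-127290842, plus strand): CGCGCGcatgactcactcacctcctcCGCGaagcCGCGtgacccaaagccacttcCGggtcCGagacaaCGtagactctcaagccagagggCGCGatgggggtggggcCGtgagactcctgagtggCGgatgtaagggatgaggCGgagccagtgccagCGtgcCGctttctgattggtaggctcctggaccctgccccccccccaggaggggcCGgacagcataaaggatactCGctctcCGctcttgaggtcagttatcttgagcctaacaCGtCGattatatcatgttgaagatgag
Ppp1r15a (chr7:45526219-45526518, minus strand): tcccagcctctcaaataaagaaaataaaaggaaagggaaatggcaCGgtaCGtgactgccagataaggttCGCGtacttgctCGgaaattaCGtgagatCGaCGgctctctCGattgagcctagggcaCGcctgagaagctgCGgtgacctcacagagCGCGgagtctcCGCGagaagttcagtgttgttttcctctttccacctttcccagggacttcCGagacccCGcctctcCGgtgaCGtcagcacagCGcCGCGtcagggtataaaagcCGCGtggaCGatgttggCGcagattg

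Tested with limma across 18193 genes, 0 of the 30 members reached an adjusted p under 0.05 (0.0110% of all genes did). The lowest adjusted p of a member was 0.136, and 6 lay at an adjusted p under 0.25 (20.0%, against 19.2% of all genes). Without adjustment, 6 of the 30 lay at a limma p under 0.05 (20.0%, against 19.7% of all genes). Of these 4 were higher in Lig4mut (13.3% of the members, against 15.5% of all genes) and 2 were lower (6.67%, against 4.18%), which is close to the background in both directions with this scaling. The arrays of the genotypes did not overlap for 4 genes higher in Lig4mut (13.3%, against 21.0% of all genes) and for 2 lower (6.67%, against 5.65%). By value 16 members were higher and 14 lower. The median difference of the members was 0.04 on the log2 scale, against 0.18 for all genes, so that 13 members lay above the median of all genes and 17 below it. That median depends on the scaling of the arrays, at 0.02 for the values as deposited, 0.09 with cyclic loess and 0.33 with arrays centred on their medians. With that centring 5 members were higher (16.7%, against 18.4% of all genes) and 0 lower (against 2.60%) at an unadjusted p under 0.05 (limma). With the values as deposited 4 were higher (13.3%, against 6.71% of all genes) and 1 lower (3.33%, against 5.44%). With cyclic loess 4 were likewise higher (13.3%, against 8.67%) and 1 lower (3.33%, against 4.39%). The 4 higher members were Creld2, Eif2ak3, Manf and Sdf2l1 under all of these scalings, joined by Derl1 with centring. The share of members that were higher thus lay below that of all genes in the fit used here and with centring. It lay above that of all genes with the values as deposited and with cyclic loess. The same held with dim genes, those under the 40th percentile of mean level, left out (13.8%, against 8.91%). With that filter 1 member was lower (3.45%, against 4.36%). The median level of the members was 9.93 in Lig4mut and 9.73 in WT, against 7.10 and 6.86 for all genes. The difference between the shares was not tested.

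**Figure D1:**
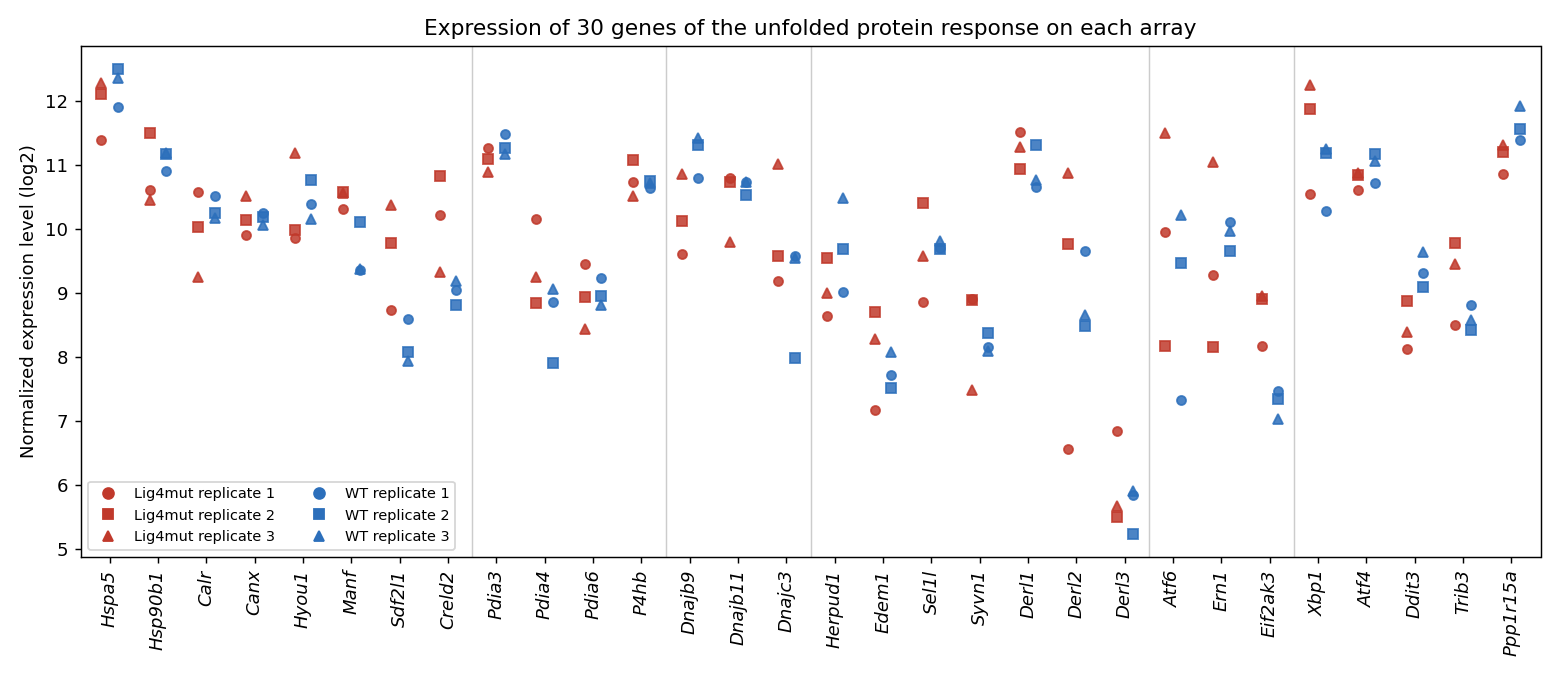
Normalized log2 expression level of the 30 genes (x axis, grouped by role between grey lines) on each of the 6 arrays, with Lig4mut in red to the left of WT in blue and a marker shape for each replicate. The genotypes separate for Manf, Sdf2l1, Creld2 and Eif2ak3, which are higher in Lig4mut, and for Ddit3 and Ppp1r15a, which are lower.

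**Figure D2:**
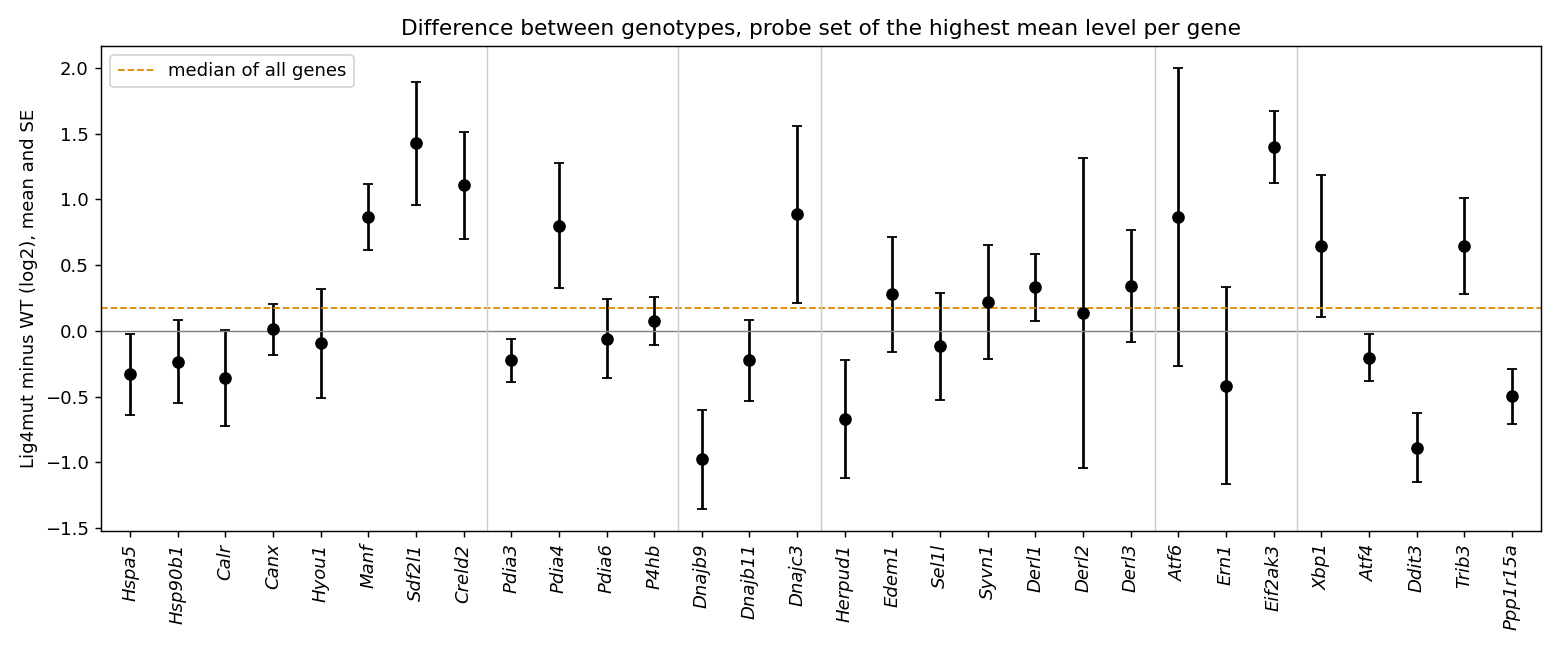
Difference Lig4mut minus WT (log2) of the 30 genes with its limma standard error, at the probe set of the highest mean level of each gene. The values run from -0.98 for Dnajb9 to 1.43 for Sdf2l1, and the dashed line marks the median of all genes at 0.18.

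Lig4 had levels of 4.97, 3.16 and 3.10 in Lig4mut, against 7.53, 6.66 and 7.63 in WT (limma, adjusted p = 0.13). Deposited array medians lay between 5.97 and 6.05 in Lig4mut and between 6.29 and 6.34 in WT. Of 15 stem cell markers 13 were measured and none was at the floor of the deposited values. Their mean level was 9.65 to 10.45 in Lig4mut and 10.52 to 10.67 in WT. Without overlap 5 of the 13 were lower (against 5.65% of all genes). Granulocyte markers averaged 10.72 in Lig4mut replicate 2, against 6.07 and 6.70 in the other Lig4mut arrays and 7.09 to 7.98 in WT. The mean of 11 macrophage and dendritic cell markers was 7.35 to 7.51 in Lig4mut and 6.35 to 6.82 in WT. Of the 11 markers, 6 were higher without overlap (against 21.0% of all genes). By value all 9 B cell, 8 T and NK cell and 8 endothelial markers were higher in Lig4mut (against 61.4% of all genes). Of these 3, 3 and 2 did not overlap between genotypes (against 21.0% of all genes). The B cell markers as a whole averaged 5.99 to 6.74 in Lig4mut and 5.71 to 5.84 in WT. The T and NK cell markers averaged 5.14 to 5.76 in Lig4mut and 4.54 to 4.93 in WT. The endothelial markers averaged 9.21 to 10.51 in Lig4mut and 7.62 to 9.76 in WT. The median level of all genes was 7.10 in Lig4mut and 6.86 in WT. Their median difference was 0.18, and 0.03 with dim genes left out. The part of the cell type markers in the results was not tested. Xist was high in Lig4mut replicate 2 and WT replicate 3, so each genotype held 1 array of the female pattern. In sorted cells measured in bulk, fewer cells of a type and less messenger per cell cannot be told apart.

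Of the 8 ER chaperone genes 4 were higher and 4 lower by value, and none passed the threshold. Manf, Sdf2l1 and Creld2 had higher values in every Lig4mut array than in any WT array, with limma adjusted p-values of 0.175, 0.201 and 0.232, and 21.0% of all genes were higher without overlap. Hspa5, Hsp90b1, Calr, Canx and Hyou1 differed by at most 0.36 in size at their brightest probe sets, with both genotypes overlapping. The mean level of the 8 chaperone genes was 10.19, 10.61 and 10.49 in the Lig4mut arrays, against 10.12, 10.23 and 10.05 in the WT arrays.

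Sdf2l1, an ER protein that works with the chaperone BiP and its J proteins, had log2 levels of 8.72, 9.78 and 10.37 in Lig4mut, against 8.58, 8.08 and 7.94 in WT. All Lig4mut arrays lay above all WT arrays, with a gap of only 0.14 between the lowest of one and the highest of the other. The difference was 1.43 ± 0.47 (SE, 3 arrays per genotype) or 2.69-fold, the highest among the members, and it was 1.05 without Lig4mut replicate 3 and 1.88 without Lig4mut replicate 1. Creld2, an ER-resident factor with disulfide isomerase activity, had levels of 10.21, 10.82 and 9.32 in Lig4mut, against 9.05, 8.81 and 9.18 in WT. Its Lig4mut replicate 3 was close to the WT arrays and the other Lig4mut arrays lay well above them. The difference was 1.11 ± 0.41 (SE, 3 arrays per genotype) or 2.15-fold, and 0.75 without Lig4mut replicate 2. Manf, a small secreted protein that the ER retains while calcium is plentiful, had levels of 10.31, 10.57 and 10.55 in Lig4mut, against 9.36, 10.10 and 9.37 in WT. The Lig4mut arrays lay close together, and WT replicate 2 was nearest to them. The difference was 0.87 ± 0.25 (SE, 3 arrays per genotype) or 1.82-fold. Each of the 3 genes has 1 probe set on the array.

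Hspa5 encodes BiP, the central chaperone of the ER lumen and the protein whose release marks the sensors as active. It had levels of 11.38, 12.10 and 12.27 in Lig4mut, against 11.90, 12.49 and 12.36 in WT, so that replicate 1 was the lowest array of either genotype. The difference was -0.33 ± 0.31 (SE, n = 3 per genotype; limma, adjusted p = 0.596), and of its other probe sets one lay lower, at -0.50, and one higher, at 0.52. Hsp90b1, which encodes the HSP90 of the ER (GRP94), had levels of 10.60, 11.49 and 10.45 in Lig4mut, against 10.90, 11.17 and 11.19 in WT. Lig4mut replicate 2 was the highest of the 6 arrays and the other Lig4mut arrays the lowest, for a difference of -0.23 ± 0.32 that took the other sign with arrays centred on medians (0.12). Calr and Canx encode calreticulin and calnexin, the lectin chaperones of newly made glycoproteins. Calr averaged 9.95 ± 0.67 in Lig4mut and 10.31 ± 0.18 in WT (SD, n = 3 each), with all 3 of its probe sets lower by value. Without Lig4mut replicate 3 the difference was -0.0072 in place of -0.36. Canx averaged 10.18 ± 0.30 in Lig4mut and 10.17 ± 0.09 in WT (SD, n = 3 each), and its other probe sets lay at -0.47 and -1.39, with a mean over all of -0.61. Hyou1 encodes GRP170, a nucleotide exchange factor for BiP. It averaged 10.34 ± 0.73 in Lig4mut and 10.43 ± 0.31 in WT (SD, n = 3 each), with a difference of -0.10 that took the other sign with arrays centred on medians (0.25) and with cyclic loess (0.02). A second, dimmer probe set of Hyou1 had levels of 8.94, 8.37 and 7.59 in Lig4mut, against 7.39, 7.09 and 7.36 in WT, with no overlap and a difference of 1.02 ± 0.37 (SE, n = 3 per genotype).

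The protein disulfide isomerases, which form and rearrange disulfide bonds in the ER, overlapped between genotypes for all 4 genes at the probe sets used here. Pdia4 (ERp72) had levels of 10.15, 8.84 and 9.24 in Lig4mut, against 8.85, 7.90 and 9.06 in WT. Lig4mut replicate 1 stood above the rest and WT replicate 2 below the others, and the difference was 0.80 ± 0.47 (SE, n = 3 per genotype; limma, adjusted p = 0.412). It was 0.43 without that Lig4mut array and 0.45 without that WT array. Pdia3 (ERp57), which works with calnexin and calreticulin on glycoproteins, differed by -0.22 ± 0.17 (SE), and by 0.13 with arrays centred on medians. P4hb, the founding member of the family, averaged 10.77 ± 0.28 in Lig4mut and 10.70 ± 0.05 in WT (SD, n = 3 each). Pdia6, which acts on IRE1 and PERK as well as on client proteins, averaged 8.94 ± 0.51 in Lig4mut and 8.998 ± 0.22 in WT (SD, n = 3 each), a difference of -0.06 that took the other sign with arrays centred on medians (0.21) and with cyclic loess (0.005).

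The J proteins hand unfolded clients to BiP, and Dnajb9 (ERdj4) also holds BiP on IRE1. Dnajb9 had levels of 9.61, 10.12 and 10.85 in Lig4mut, against 10.79, 11.31 and 11.42 in WT. In both genotypes the values were lowest in replicate 1 and highest in replicate 3, and Lig4mut replicate 3 lay just above WT replicate 1, the sole overlap between the groups. The difference of -0.98 ± 0.37 (SE, n = 3 per genotype), 1.97-fold, was the lowest among the members and missed the threshold (limma, adjusted p = 0.245). With arrays centred on medians it was -0.63. Dnajb11 (ERdj3) differed by -0.22 ± 0.31 (SE), and by 0.12 with arrays centred on medians. Its Lig4mut arrays lay at 10.79, 10.73 and 9.79, against 10.72, 10.53 and 10.73 in WT, so Lig4mut replicate 3 alone was low. Dnajc3 (p58IPK), which also restrains PERK, averaged 9.92 ± 0.96 in Lig4mut and 9.04 ± 0.91 in WT (SD, n = 3 each), and the differences of its 5 probe sets lay between -0.98 and 0.89.

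ER-associated degradation draws misfolded proteins out of the ER for the proteasome. Of its 7 member genes 5 were higher by value (against 61.4% of all genes) and 2 lower (against 37.1%), with no separation between genotypes for any of them. Their median difference of 0.22 lay close to the 0.18 of all genes. That of all genes was 0.03 with dim genes left out. Herpud1, a ubiquitin-like-domain protein that assembles the degradation complex, had levels of 8.63, 9.54 and 8.997 in Lig4mut, against 9.02, 9.68 and 10.49 in WT. WT replicate 3 stood apart above the other arrays, and the difference was -0.67 ± 0.45 (SE, n = 3 per genotype; limma, adjusted p = 0.465), with the second probe set at -0.995. Without WT replicate 3 the difference was -0.29. Syvn1 (HRD1), the ubiquitin ligase of the complex, had levels of 8.91, 8.88 and 7.48 in Lig4mut, against 8.15, 8.37 and 8.09 in WT. Lig4mut replicates 1 and 2 were above all WT arrays and Lig4mut replicate 3 below them. Sel1l, the partner that holds HRD1 together, averaged 9.61 ± 0.77 in Lig4mut and 9.73 ± 0.07 in WT (SD, n = 3 each), a difference of -0.12 that took the other sign with arrays centred on medians (0.22) and was at 0.004 with cyclic loess. Edem1, which directs trimmed glycoproteins to degradation, differed by 0.28 ± 0.44 (SE) at the brighter probe set and by -1.91 ± 1.09 (SE) at the other.

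The derlins form the channel side of the degradation complex. Derl1 had levels of 11.51, 10.93 and 11.28 in Lig4mut, against 10.65, 11.31 and 10.77 in WT, with a difference of 0.33 ± 0.26 (SE, n = 3 per genotype) and overlap between the genotypes. Derl2 had levels of 6.56, 9.76 and 10.87 in Lig4mut, against 9.65, 8.48 and 8.65 in WT. The Lig4mut arrays lay on both sides of the WT arrays, with the largest spread of any member at an SD of 2.24. Derl3, whose messenger is typical of secretory cells such as plasma cells, had levels of 6.84, 5.49 and 5.67 in Lig4mut, against 5.84, 5.24 and 5.90 in WT. The 7 measured markers of plasma cells, of 8 on the list, averaged 5.05 to 5.33 in Lig4mut and 4.75 to 5.15 in WT. Of these only Tnfrsf17 was higher without overlap (against 21.0% of all genes). It had levels of 5.88, 6.21 and 5.68 in Lig4mut, against 5.09, 5.11 and 5.18 in WT. Sdc1 differed by 0.60, Prdm1 by 0.48, Mzb1 by 0.15, Irf4 by -0.03 and Jchain by -0.12, all with overlap. Pou2af1 was at the floor on all 6 arrays, and Jchain lay between 3.65 and 4.30 in Lig4mut and between 3.63 and 4.73 in WT, near the floor of 3. The part of plasma cell transcripts in the level of Derl3 was not tested.

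Of the sensors Eif2ak3 (PERK) separated the genotypes. It had levels of 8.17, 8.90 and 8.95 in Lig4mut, against 7.46, 7.34 and 7.03 in WT. The lowest Lig4mut array lay 0.71 above the highest WT array, and the difference was 1.40 ± 0.27 (SE, 3 arrays per genotype) or 2.64-fold. This was the smallest p among the members (limma, unadjusted p = 0.0032), and it missed the adjusted threshold (adjusted p = 0.136). Whichever array was left out, its unadjusted limma p stayed under 0.05, which held for no other member. The probe sets of the gene disagreed, however. A second lay at 9.77, 4.68 and 7.78 in Lig4mut, against 7.16, 6.62 and 7.30 in WT, and the dimmest differed by -0.56. The mean over the 3 was 0.41 (limma, unadjusted p = 0.359).

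Ern1 (IRE1) and Atf6 showed wide spread and probe sets in both directions. The brightest probe set of Ern1 had levels of 9.28, 8.16 and 11.04 in Lig4mut, against 10.11, 9.65 and 9.97 in WT. The WT arrays lay within 0.46 of each other and the Lig4mut arrays on both sides of them. Of its 5 probe sets 4 were lower by value, 2 of them with no overlap (-1.26 ± 0.31 and -1.06 ± 0.61, SE), and 1 was higher with no overlap (0.96 ± 0.36). Atf6 had levels of 9.94, 8.17 and 11.49 in Lig4mut, against 7.33, 9.46 and 10.21 in WT, with a difference of 0.87 ± 1.13 (SE, n = 3 per genotype) that its spread covers. A dimmer probe set of Atf6 was higher with no overlap, at 7.27, 8.05 and 7.71 in Lig4mut, against 6.97, 7.15 and 7.02 in WT.

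**Figure D3:**
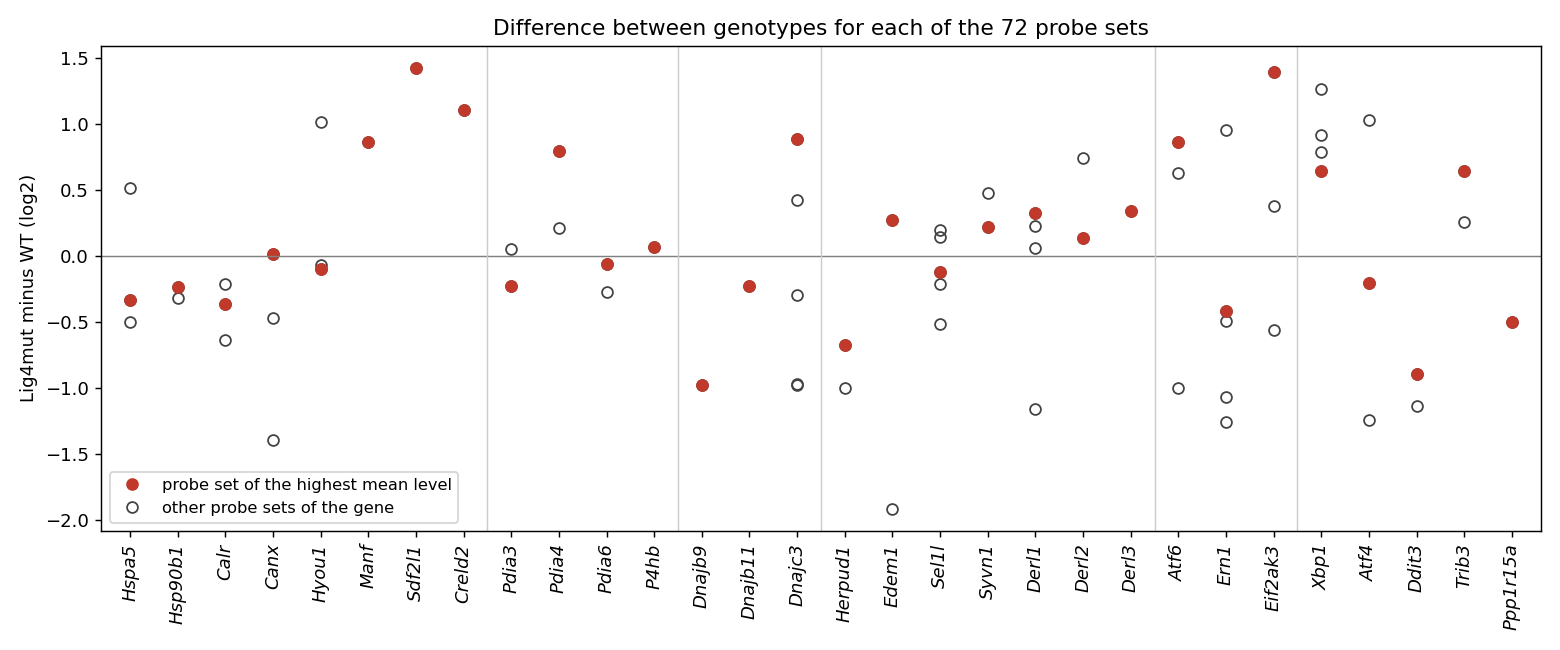
Difference Lig4mut minus WT (log2) for each of the 72 probe sets of the 30 genes, with the probe set of the highest mean level in red and the others as open circles. The 4 probe sets of Xbp1 all lie above 0 and both of Ddit3 below it, while Atf4, Ern1 and Edem1 have probe sets far apart.

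Of the transcription factors Xbp1 was higher by value and Atf4 and Ddit3 lower at the probe sets used here. None passed the adjusted threshold. The PERK arm was itself mixed, with Eif2ak3 (1.40) and Trib3 (0.64) higher by value. Xbp1, the factor of the IRE1 arm, had levels of 10.53, 11.86 and 12.25 in Lig4mut, against 10.28, 11.18 and 11.25 in WT. Replicate 1 was the lowest array of either genotype, and the groups overlapped. The difference was 0.65 ± 0.54 (SE, n = 3 per genotype; limma, adjusted p = 0.558), and its 4 probe sets lay between 0.65 and 1.27, all on the higher side. The range over single arrays left out ran from 0.30 without Lig4mut replicate 3 to 1.15 without Lig4mut replicate 1.

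In the PERK arm Ddit3 and Ppp1r15a were lower in all Lig4mut arrays than in any WT array at the probe sets used here. Of all genes 5.65% were lower without overlap. With arrays centred on medians 0 members were lower without overlap. Ddit3 encodes CHOP, a transcription factor that can promote cell death under lasting stress. It had levels of 8.11, 8.87 and 8.39 in Lig4mut, against 9.31, 9.09 and 9.64 in WT. The gap between the groups was 0.22, and the difference was -0.89 ± 0.26 (SE, n = 3 per genotype; limma, adjusted p = 0.178), 1.85-fold. With arrays centred on medians it was -0.62. The second probe set of Ddit3 lay at -1.13, with overlap between the genotypes. Ppp1r15a encodes GADD34, which directs a phosphatase to eIF2alpha and so restores translation. It had levels of 10.86, 11.20 and 11.31 in Lig4mut, against 11.39, 11.55 and 11.92 in WT. The difference was -0.50 ± 0.21 (SE, n = 3 per genotype; limma, adjusted p = 0.281), and it was -0.16 with arrays centred on medians.

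Atf4, the factor upstream of both, gave a different answer with each probe set. The brightest in the mean over all arrays lay at 10.60, 10.84 and 10.87 in Lig4mut, against 10.71, 11.16 and 11.05 in WT, a difference of -0.20 ± 0.18 (SE) that was 0.15 with arrays centred on medians. A second lay at 9.96, 9.71 and 9.86 in Lig4mut, against 10.62, 11.24 and 11.38 in WT, with no overlap and a difference of -1.24 ± 0.24 (SE, n = 3 per genotype; limma over all probe sets, adjusted p = 0.137). The dimmest lay at 7.55, 8.59 and 7.25 in Lig4mut, against 6.71, 6.88 and 6.69 in WT, with no overlap in the other direction. Trib3, a pseudokinase that ATF4 and CHOP induce, had levels of 8.50, 9.77 and 9.45 in Lig4mut, against 8.81, 8.41 and 8.58 in WT. Lig4mut replicates 2 and 3 were above all WT arrays and replicate 1 within them, for a difference of 0.64 ± 0.37 (SE, n = 3 per genotype; limma, adjusted p = 0.395).

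Across all 72 probe sets 35 were higher and 37 lower by value. None reached an adjusted p under 0.05 over the 34945 probe sets (limma, lowest adjusted p = 0.136, with 0.00286% of all probe sets past it). By unadjusted limma p under 0.05, 8 were higher (11.1%, against 12.2% of all probe sets) and 4 lower (5.56%, against 5.30%). The genotypes did not overlap for 8 probe sets higher in Lig4mut (11.1%, against 16.6% of all probe sets) and 5 lower (6.94%, against 7.13%). Of the 22 genes with several probe sets, 5 had all of them higher in Lig4mut, 5 had all of them lower and 12 had them in both directions. One probe set, of Dnajc3, touched the floor of the deposited values.

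The Lig4mut arrays differed among themselves more than the WT arrays did for 25 of the 30 genes (83.3%, against 69.9% of all genes). The median SD of a member was 0.64 between Lig4mut arrays and 0.27 between WT arrays, and that of all genes 0.45 between Lig4mut arrays and 0.28 between WT arrays. The array at the low end was most often Lig4mut replicate 1, which held the lowest Lig4mut value of 17 of the 30 members (against 37.0% of all genes). Replicate 1 was the lowest array in both genotypes for 7 of the 30 genes, namely Hspa5, Manf, Dnajb9, Herpud1, Xbp1, Atf4 and Ppp1r15a (23.3%, against 14.8% of all genes). Immediate early genes, which respond to the handling of cells, averaged 9.40, 10.33 and 10.52 in Lig4mut replicates 1, 2 and 3, against 9.58, 10.65 and 10.63 in those of WT. Their part in these values was not tested.

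**Figure D4:**
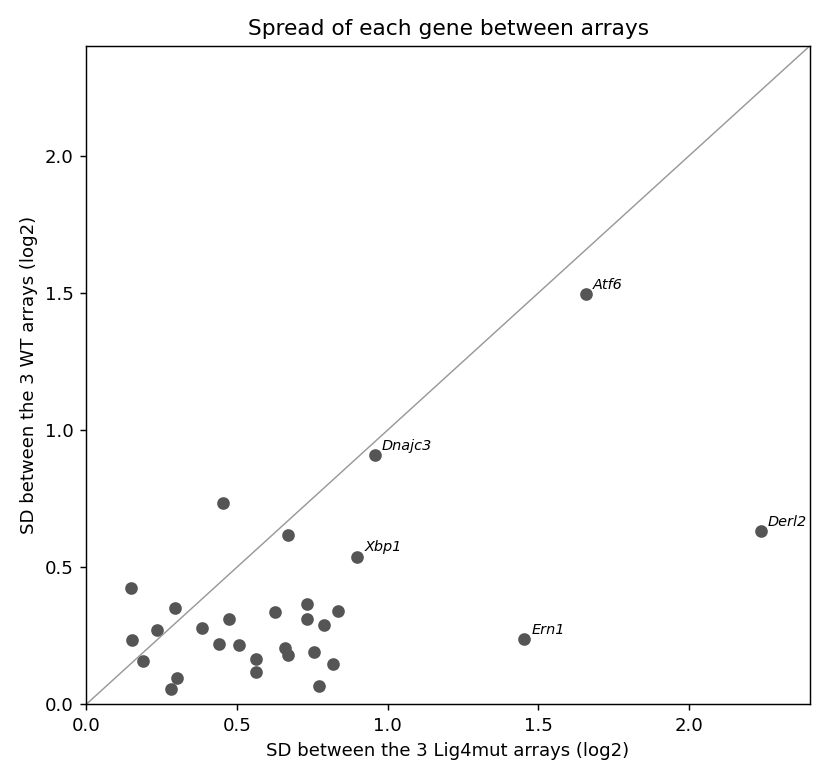
Standard deviation of each of the 30 genes between the 3 Lig4mut arrays (x axis) and between the 3 WT arrays (y axis), both in log2 units, with the genes of the widest spread named. Most points (25 of 30) lie below the diagonal, with Derl2 and Ern1 farthest from it.

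The counts moved with single arrays. Without Lig4mut replicate 2, the array with the high granulocyte markers, 1 member was higher by an unadjusted limma p under 0.05 (Eif2ak3; 3.33%, against 14.3% of all genes) and 2 were lower (Ddit3 and Hsp90b1; 6.67%, against 4.94%). Without WT replicate 3 the count of higher members was also 1 (Eif2ak3; 3.33%, against 11.4%). Without Lig4mut replicate 1 it was 6 (20.0%, against 16.4%), with Edem1, Trib3 and Xbp1 beside Eif2ak3, Manf and Sdf2l1. For 23 of the 30 members leaving out 1 array moved the difference by over 1.5 times or turned its sign. The other 7 were Manf, Sdf2l1, Creld2, Dnajb9, Eif2ak3, Ddit3 and Ppp1r15a. They were the 6 members at an unadjusted limma p under 0.05 with all arrays, and Ppp1r15a. A small difference moves by that ratio easily, and the share over all genes was not counted.

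The neighbouring genes of the pathway likewise held no gene past the adjusted threshold. Over all genes 61.4% were higher and 37.1% lower by value. Of 28 measured other folding factors of the ER 12 were higher and 16 lower by value, and 1 was higher at an unadjusted p under 0.05 by limma (against 15.5% of all genes). That gene was Calu, which encodes a calcium-binding protein of the secretory pathway, at 10.16, 10.41 and 10.31 in Lig4mut, against 9.74, 9.76 and 9.65 in WT. The mean over its 2 probe sets was -0.65. Sdf4, the only gene of the same list lower without overlap (against 5.65% of all genes), differed by -0.16 ± 0.14 (SE), with 0.02 between its groups. The mean over its probe sets was -1.49. Of 31 genes of translocation into the ER and N-glycosylation 16 were higher and 15 lower by value. Without overlap 2 of them were higher and 3 lower (against 21.0% and 5.65% of all genes). Srpr, which encodes the receptor of the signal recognition particle, had levels of 9.53, 9.03 and 8.55 in Lig4mut, against 10.47, 10.38 and 10.28 in WT (-1.34 ± 0.27 SE; limma, adjusted p = 0.138). Sec11c, a subunit of the signal peptidase, differed by -0.59 ± 0.13 (SE), and Alg5, an enzyme that makes the sugar donor of N-glycosylation, by 0.79 ± 0.22 (SE), both without overlap.

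Of 24 further factors of ER-associated degradation 7 were higher and 17 lower by value. Without overlap 0 were higher and 4 lower (against 21.0% and 5.65% of all genes). At an unadjusted limma p under 0.05, 1 was lower (against 4.18%). Edem3, a homologue of Edem1, had levels of 7.31, 6.84 and 7.02 in Lig4mut, against 8.91, 8.27 and 9.47 in WT (-1.83 ± 0.35 SE, 3.55-fold; limma, adjusted p = 0.135). Its groups were 0.96 apart, the widest gap among the neighbouring genes named here. Erlec1, a lectin of that pathway, differed by -0.67 and the membrane scaffold gene Erlin1 by -0.53, both without overlap, and by -0.36 and -0.21 as means of their probe sets. Of 27 targets of the integrated stress response, which ATF4 drives, 16 were higher and 11 lower by value. Their median of 0.19 lay close to the 0.18 of all genes, a value that was 0.03 with dim genes left out. Without overlap 3 were higher and 1 lower (against 21.0% and 5.65% of all genes). Nupr1, a stress-induced chromatin protein, had levels of 11.44, 10.72 and 10.36 in Lig4mut, against 8.65, 9.61 and 7.35 in WT. Mthfd2, a mitochondrial enzyme of one-carbon metabolism, differed by 1.19 ± 0.45 (SE), and Jdp2, a repressor of the AP-1 family, by -1.47 ± 0.38 (SE), both without overlap. The mean over the probe sets of Jdp2 was -0.58. Of 27 other sensors and regulators 7 were higher and 20 lower by value, and without overlap 0 were higher and 2 lower (against 21.0% and 5.65%). Map3k5 (ASK1), a kinase that IRE1 can engage, had levels of 7.14, 8.19 and 7.77 in Lig4mut, against 8.28, 9.83 and 9.94 in WT (-1.65 ± 0.55 SE; limma, adjusted p = 0.204). Rtcb, the ligase that joins the Xbp1 exons after the cut by IRE1, differed by -0.39 ± 0.18 (SE), with 0.01 between its groups.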

How the data were processed

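Per the submitters' processing notes, the authors ran RMA, and they deposited 1 log2 value per probe set and array. No deposited value lies under 3, which occurs on all arrays and acts as a floor. Arrays carry no depth, and their number limits the precision.

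GEO's platform annotation named the probe sets. Symbols of 34741 of the 34945 probe sets with 1 gene were updated to RefSeq's table for GRCm38.p6. Controls (64) and probe sets naming several genes (932) or no gene (9160) did not enter. Because array distributions differed, quantile normalization was applied to the log2 values of the 6 arrays. Each of 18193 genes was represented by its probe set of the highest mean. Differences are Lig4mut minus WT, from limma 3.58.1 in R 4.3.3 (lmFit, eBayes, two-sided, Benjamini-Hochberg over all genes, threshold 0.05). The fit was also run on simulated data with changes larger than any member difference, so that run does not bear on differences of their size. All 30 members were described, and of each neighbouring list up to 3 genes without overlap between genotypes by the smallest p. An exact permutation test of 3 arrays against 3 cannot give a p below 0.1. Replicate numbers are not stated to pair mice, and the main fit did not treat same-numbered arrays as pairs. The correlations of their deviations from the group means over all genes were 0.036, 0.010 and -0.032. Those of differently numbered arrays ran from -0.051 to 0.043, and these values do not settle whether arrays pair. Members and lists were chosen with earlier results of these data known. Promoter windows were described by base composition; the motif and protein features foreseen were not analysed here. The alternatives were the replicate block, each array left out, 3 scalings, a filter on dim genes, the mean of probe sets, trended robust moderation, array weights and other thresholds.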

Additional observations from a re-analysis of the deposited data

How the results depend on the processing

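No member passed the threshold over all genes under any of the 14 alternatives (limma, adjusted p from 0.123 upwards, with 1 to 6 members higher at an unadjusted p under 0.05). At an adjusted threshold of 0.25, 6 members passed (20.0%, against 19.2% of all genes), and at 0.10 none. The replicate number as a block left 2 members higher at an unadjusted p under 0.05 in place of 4 (6.67%, against 11.7% of all genes). Lower were 2 (6.67%, against 4.05%), Dnajb9 and Ppp1r15a in place of Dnajb9 and Ddit3. The count higher at that level ran from 1 to 6 with single arrays left out, and the count lower from 0 to 2 (3.33% to 20.0% and 0% to 6.67%, against 9.67% to 16.4% and 2.98% to 6.07% of all genes). The count lower was 1 with the values as deposited, with cyclic loess and with dim genes left out, and 0 with arrays centred on medians. Without overlap there were 4 to 9 members higher and 2 to 6 lower with single arrays left out, where 2 arrays against 3 separate more easily. The 9 of 30 stood without Lig4mut replicate 1 (against 29.4% of all genes) and the 4 without WT replicate 1 (13.3%, against 25.5%) or 3 (13.3%, against 26.9%). The 6 stood without WT replicate 1 (20.0%, against 8.72%) and the 2 without WT replicate 2 (6.67%, against 8.02%). With centring there were 7 higher and 0 lower (against 30.1% and 3.14% of all genes), and with cyclic loess 1 lower (against 6.12%). The median of the members relative to all genes was -0.13, and it was 0.0266 with the values as deposited and with centring, 0.0492 with cyclic loess, -0.017 with dim genes left out and -0.20 to -0.07 with single arrays left out.

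Of 419 member values under other settings 34 took the other sign, in 16 genes. With centring these were Hsp90b1 (0.12), Hyou1 (0.25), Pdia3 (0.13), Pdia6 (0.21), Dnajb11 (0.12), Sel1l (0.22) and Atf4 (0.15), and Sdf4 among the neighbouring genes (0.19). With cyclic loess they were Hyou1 (0.0218), Pdia6 (0.005) and Sel1l (0.0036). With the mean of probe sets they were Canx (-0.61), Hyou1 (0.29), Dnajc3 (-0.19), Edem1 (-0.82) and Derl1 (-0.13), and Calu (-0.65). With single arrays left out the sign changed within the ranges of Canx (-0.15 to 0.15), Hyou1 (-0.52 to 0.14), Pdia6 (-0.31 to 0.19), P4hb (-0.0753 to 0.20), Dnajb11 (-0.40 to 0.10), Edem1 (-0.0488 to 0.72), Sel1l (-0.51 to 0.26), Syvn1 (-0.0211 to 0.69), Derl2 (-0.77 to 1.39), Derl3 (-0.0774 to 0.60) and Ern1 (-1.19 to 0.25). The cause was not tested.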
